A study of Homo sapiens with 34 samples.

Results

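The regulators of globin switching and the genes of the LIN28 axis were followed through blood formation from H1, an established human embryonic stem cell line. They were 10 genes, found in the deposited expression table by their symbols: KLF1, BCL11A, ZBTB7A, SOX6, LIN28A, LIN28B, IGF2BP1, IGF2BP3, HMGA2 and ARID3A. All 10 were among the 20255 genes of the table and among the 19788 genes that were tested. RNA was sequenced from undifferentiated H1 cells without treatment (1 sample), embryoid bodies (EBs) labelled BMP4 and VEGF at day 0, unsorted cells labelled VEGF at days 2 and 4, and cells labelled VEGF and sorted at days 6, 9, 12 and 16. By the protocol BMP4 was left out from day 3 on, so that day 2 cells had also been grown with BMP4, although their label names VEGF alone. The methods instead place the change to medium without BMP4 on day 2. They list BMP4 and VEGF from the start of EB attachment, which is day 0, and not for the forming of EBs. How far day 0 EBs had been exposed to either is therefore not clear. The sort used CD43, a glycoprotein found on the surface of blood cells. At day 16 it also used CD45, the pan-leukocyte phosphatase, and the CD43-CD45- and CD43+/CD45+ populations are called CD43- and CD43+ here. The 11 populations from day 0 onwards had 3 replicates each, described in the methods as independent biological ones, which gives 34 samples in all. Attached EBs were grown on collagen IV, and no haematopoietic cytokine was added to any sample. All samples came from a single cell line, and days 0, 2 and 4 were not sorted.

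KLF1 is an erythroid transcription factor that activates the adult β-globin gene and many genes of the red cell membrane and of haem synthesis. BCL11A, ZBTB7A and SOX6 are repressors of the fetal and embryonic globin genes in adult erythroid cells. LIN28A and LIN28B are RNA-binding proteins that block the maturation of let-7, a family of microRNAs that repress growth-promoting and fetal genes. IGF2BP1, IGF2BP3, HMGA2 and ARID3A are known let-7 targets, and LIN28B, IGF2BP1 and IGF2BP3 are known for their part in the fetal type of haematopoiesis, in which γ-globin is made.

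The let-7 microRNAs were not measured here, and none of the 6 let-7 host transcripts looked for was in the table. Their sequences are shown because the LIN28 axis acts through them. RefSeq (GRCh38.p14) gives 8 mature let-7 5p names from 11 loci, and all share 1 seed, GAGGUAG, which is bases 2 to 8 and is in capitals. Of the 4 shown, let-7a comes from 3 loci, among them chr9:94175962-94175983 on the plus strand, let-7d from chr9:94178841-94178862 (plus), let-7g from chr3:52268336-52268357 (minus) and let-7i from chr12:62603691-62603712 (plus).
let-7a-5p: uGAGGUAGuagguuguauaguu
let-7d-5p: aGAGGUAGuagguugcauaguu
let-7g-5p: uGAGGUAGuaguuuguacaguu
let-7i-5p: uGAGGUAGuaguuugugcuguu
LIN28 proteins bind let-7 precursors at a GGAG motif near the loop, and 9 of the 11 hairpins held these letters after the 5p arm. They are in capitals in the let-7g hairpin, chr3:52268278-52268361 on the minus strand.
let-7g hairpin: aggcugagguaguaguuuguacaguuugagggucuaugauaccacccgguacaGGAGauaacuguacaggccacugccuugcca

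The complement of the seed, CTACCTC, was searched on the sense strand in the 3′ untranslated region of 1 transcript per gene (GENCODE v29, GRCh38). Of 18946 such regions, 8.60% held it at least once and 0.164% at least 3 times. The 6 genes of the LIN28 axis all held it, and the 4 globin regulators did not hold it in the transcripts searched. HMGA2 held 4 matches in 3003 bases, LIN28B 4 in 4549 bases, IGF2BP1 4 in 6206 bases and ARID3A 2 in 3869 bases, while LIN28A and IGF2BP3 held 1 each. Among regions of similar length, as many matches or more were found in 0.099% for HMGA2, 0.233% for LIN28B, 0.556% for IGF2BP1, 2.52% for ARID3A, 16.8% for LIN28A and 11.9% for IGF2BP3. A match is a description of the letters only. The sites below were taken to show 1 match of each gene in its surroundings, with the match in capitals.
HMGA2 (chr12:65963293-65963321, plus strand): ggggcgccaacgttcgatttCTACCTCag
LIN28B (chr6:105081233-105081262, plus strand): attatgtactgatgatagtaaCTACCTCtg
IGF2BP1 (chr17:49051055-49051084, plus strand): caatgctgtgtgcgaagtaaaCTACCTCaa
ARID3A (chr19:974505-974534, plus strand): gcgcctgctgcctatctctgtCTACCTCag
LIN28A (chr1:26427342-26427371, plus strand): tggagtgcacagcctattgaaCTACCTCat
IGF2BP3 (chr7:23311794-23311823, minus strand): taaacgtgcatttttactcaaCTACCTCag

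Values are GC-normalized tag counts, in which every sample holds the same set of values in another order, so that they act like ranks. The sequencing depth is therefore unknown, and levels are not compared between genes. With limma over all genes tested, a gene was called when it moved more than 4-fold (a log2 difference beyond 2) and its p-value, adjusted by the method of Benjamini and Hochberg, was under 0.05. Fold changes are on the scale of log2(value + 1), which understates the change of low genes. In bulk samples such as these, fewer cells of a type and less RNA per cell cannot be told apart. The label of the sort was checked with SPN, which encodes CD43. It stood at 2338 to 9460 in the 12 CD43+ samples and at 18 to 328 in the 12 CD43- samples. PTPRC, which encodes CD45, stood at 10084 to 15868 in day 16 CD43+ cells and at 18 to 42 in day 16 CD43- cells. In day 16 CD43- cells the summed level of 6 megakaryocyte markers was 4748 to 14545, against 199 to 235 on day 6, and that of 6 neutrophil markers was 6098 to 19933, so these samples held RNA of blood cell markers. In day 6 CD43+ cells the summed level of 6 mesenchymal markers was 58664 to 154858, against 186047 to 221761 in day 6 CD43- cells.

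**Figure D1:**
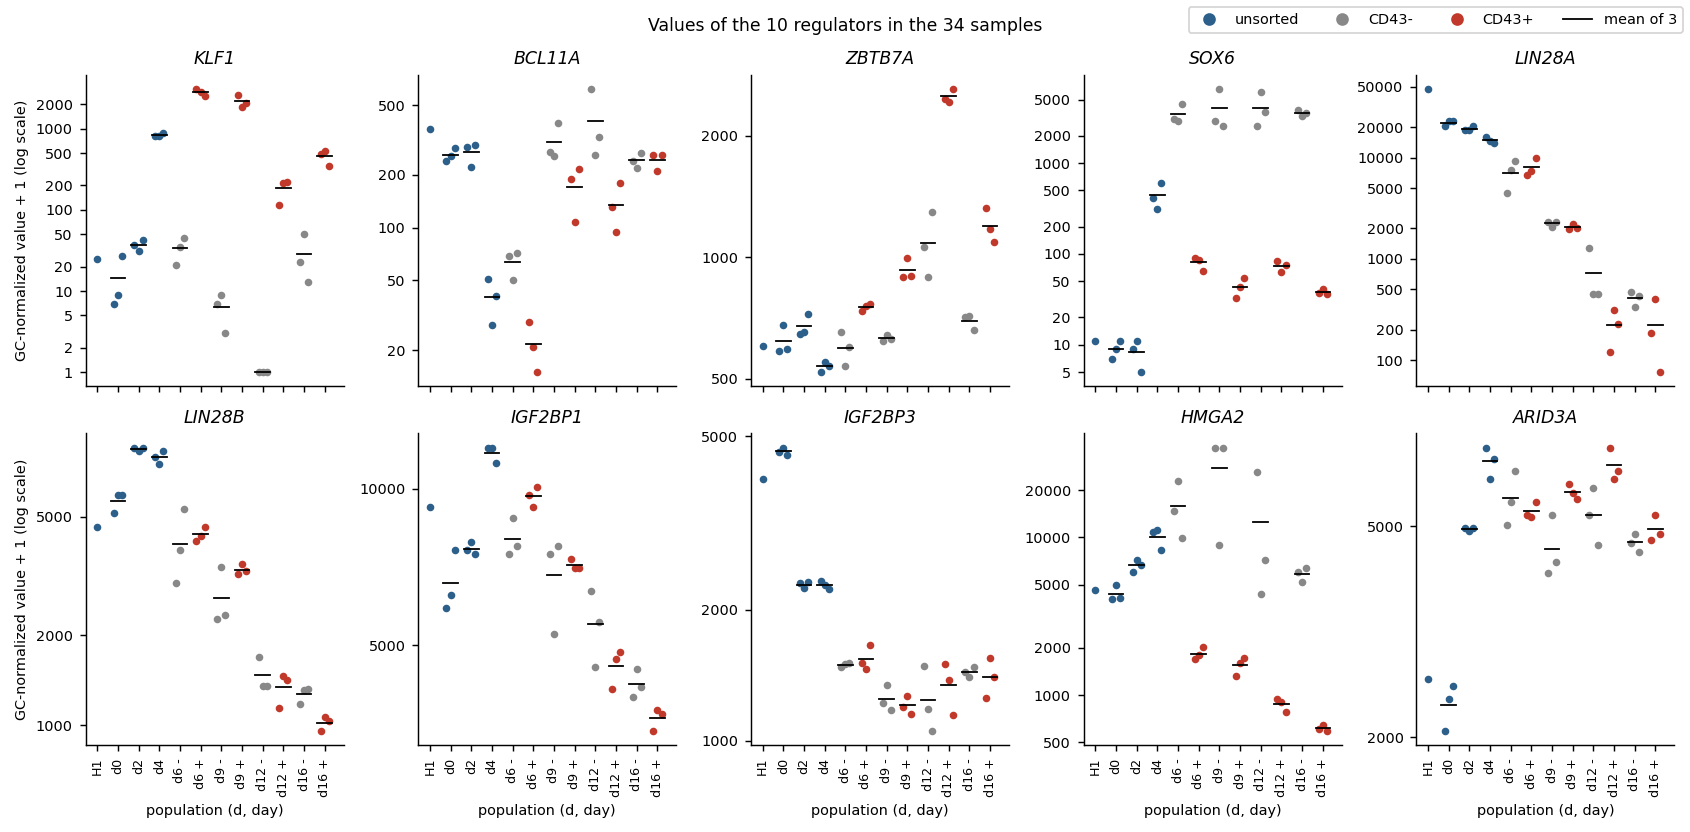
Each panel shows 1 gene, with the GC-normalized value plus 1 on a log scale (y axis) over the 12 populations in order of day (x axis, H1 for undifferentiated cells and d for day). Points are samples, blue for unsorted, grey for CD43- and red for CD43+, and black lines are means of 3. KLF1 stands high in CD43+ cells, SOX6 and HMGA2 stand high in CD43- cells, and LIN28A and LIN28B fall over the days in both.

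The 10 genes differed widely in how far they moved. The range of the 11 population means was 11.45 on the log2 scale for KLF1, 8.92 for SOX6, 6.95 for LIN28A, 5.23 for HMGA2 and 4.17 for BCL11A, against a median of 2.92 over all genes tested. It was 3.05 for LIN28B, 2.22 for ZBTB7A, 1.94 for IGF2BP3, 1.70 for IGF2BP1 and 1.52 for ARID3A. The range of KLF1, which includes a population listed at 0, was wider than that of 99.5% of the genes tested and the range of ARID3A wider than that of 20.8%.

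Between CD43+ and CD43- cells, 3 of the 10 genes were called on every day: KLF1 higher and SOX6 and HMGA2 lower in CD43+ cells. Of all genes, 12.5% were called on day 6, and the shares for days 9, 12 and 16 were 21.5%, 26.2% and 25.8%, so 3 of 10 was close to the background on the last pair of days. The other 7 genes were not called on any day.

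**Figure D2:**
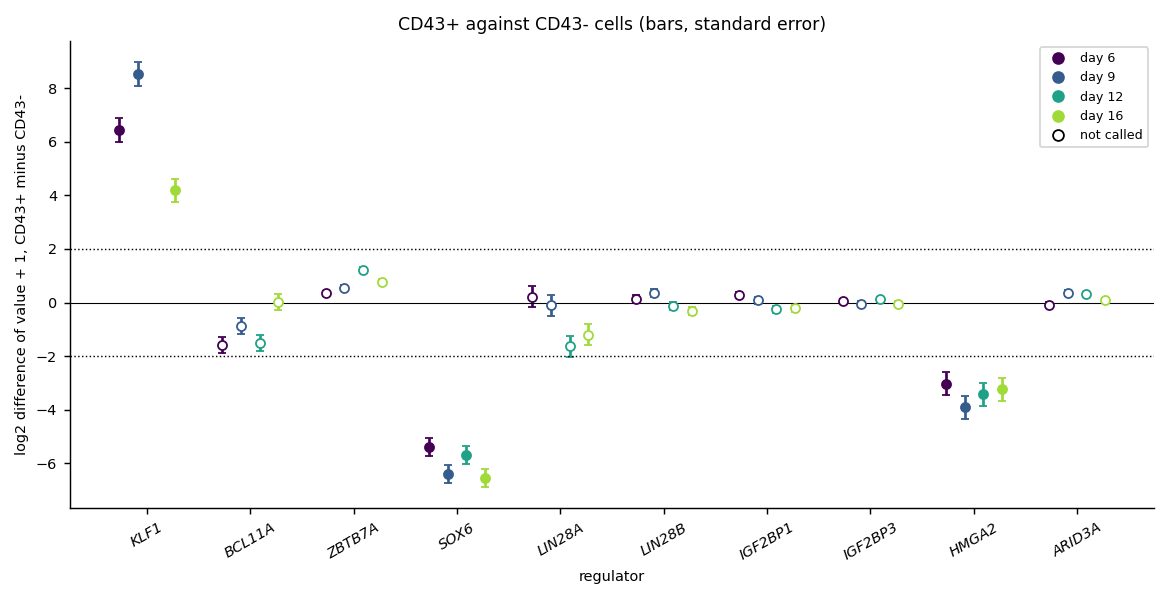
The log2 difference of value + 1 between CD43+ and CD43- cells (y axis, bars are standard errors, 3 samples a population) is plotted for each gene (x axis) and day (colour), with filled points for called differences and dotted lines at a 4-fold change. KLF1 lies at 4.19 to 8.55, with day 12 left out because the CD43- cells are listed at 0, SOX6 at -6.55 to -5.41 and HMGA2 at -3.91 to -3.03.

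Over the early days, 0 of the 10 genes were called between days 0 and 2, when 7.88% of all genes were, although 4 of the 10 had an adjusted p below 0.05 (limma). Between days 2 and 4, 3 were called (KLF1, SOX6 and BCL11A) against 9.50% of all genes. From day 4 to the CD43+ cells of day 6, SOX6 and HMGA2 were called, both lower, against 14.5% of all genes, and from day 4 to the CD43- cells of day 6 SOX6 was called higher and KLF1 lower, against 7.71%.

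Within CD43+ cells, 1 of the 10 genes was called between days 6 and 9 (BCL11A, background 7.53%), 2 between days 9 and 12 (KLF1 and LIN28A, background 15.0%) and 0 between days 12 and 16 (background 9.05%), when 7 had an adjusted p below 0.05 (limma). Between days 6 and 16, 4 were called (BCL11A higher, KLF1, LIN28A and LIN28B lower) against 21.3% of all genes. Within CD43- cells, 2 were called between days 6 and 9 (BCL11A and KLF1, background 1.75%), 1 between days 9 and 12 (KLF1, background 7.33%), 1 between days 12 and 16 (KLF1, background 10.4%) and 1 between days 6 and 16 (LIN28A, background 13.2%). Against day 0, 5 were called in CD43+ cells of day 16 (background 30%) and 3 in CD43- cells of that day (background 25.0%). These comparisons share samples, so their calls are not independent of each other.

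KLF1 (ENSG00000105610, chromosome 19 of GRCh38 from 12884423 to 12887181, minus strand) had the largest difference of the 10 genes between the sorted populations on days 6 and 9. On day 6 its values were 3108, 2804 and 2530 in CD43+ cells and 20, 34 and 44 in CD43- cells. On day 9 they were 2612, 1828 and 2074 against 6, 8 and 2. The groups were far apart on both days, with differences on the log2 scale of 6.45 on day 6 (standard error 0.44, adjusted p = 6.44e-12, limma) and 8.55 on day 9 (standard error 0.44, adjusted p = 5.71e-15). On day 12 the values were 114, 216 and 218 in CD43+ cells, and KLF1 is listed at 0 in all 3 CD43- samples, so no fold is given. On day 16 they were 486, 526 and 350 against 22, 49 and 12, and the difference was 4.19 (standard error 0.44, adjusted p = 3.93e-09). CD43+ cells therefore stood above CD43- cells in every sample of every day.

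The rise of KLF1 began before the sort. The values were 24 in undifferentiated cells, 6, 8 and 26 on day 0 and 36, 30 and 41 on day 2, and they were 821, 822 and 894 in unsorted day 4 cells. The rise from day 2 to day 4 was 4.54 (standard error 0.44, adjusted p = 4.87e-09, limma). Day 6 CD43- cells differed from unsorted day 4 cells by -4.72 (adjusted p = 5.51e-09, limma). Day 6 CD43+ cells differed from them by 1.73 (adjusted p = 0.00185), under 4-fold. From day 0 to day 2 the difference of 1.61 was not called (adjusted p = 0.00529), and without the highest day 0 sample it was 2.20. In order of its means, KLF1 was highest in day 6 CD43+ cells, followed by day 9 CD43+, day 4, day 16 CD43+ and day 12 CD43+ cells. Of these neighbours, only the first pair overlapped. In the next 5 populations, from day 2 cells (35.7 ± 5.5, mean ± SD, n = 3) down to EBs at day 0, each overlapped the next.

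In CD43+ cells KLF1 fell by 3.61 on the log2 scale between days 9 and 12 (standard error 0.44, adjusted p = 1.31e-07, limma), and the values of the 2 days did not overlap. Its difference between days 12 and 16 was 1.35 (adjusted p = 0.0159) and was not called. Day 16 CD43+ cells were 6.26-fold below those of day 6 (adjusted p = 8.33e-06) and 37.6-fold above day 0 (adjusted p = 3.07e-11). Over the same days the summed level of 7 erythroid markers in CD43+ cells was 102288 to 116833 on day 9. It was 3551 to 10419 on day 12 and 4829 to 10381 on day 16. Most of this sum was the globin gene HBE1, at 90700 on day 9, 2618 to 9248 on day 12 and 3658 to 8977 on day 16. The sum therefore says little of the other erythroid markers. The part of these markers in the fall of KLF1 was not tested. In CD43- cells KLF1 was listed at 0 on day 12 and stood at 12 to 49 on day 16. The summed erythroid level there was 602 to 1025 on day 12 and 2452 to 3447 on day 16. HBE1 held 2 to 78 of the first and 836 to 1819 of the second. The part of these blood markers in the day 16 values was not tested. Both calls, from CD43- values of 2 to 8 on day 9 to 0 and from 0 to 12 to 49, were lost with a pseudocount of 10. From day 6 to day 9 KLF1 changed by -2.48 in CD43- cells (adjusted p = 0.000727, limma). This was not called with a pseudocount of 10 (-1.46), without replicate 3 (-1.77) or in a fit of only the populations compared (adjusted p = 0.158).

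The difference in KLF1 between CD43+ and CD43- cells changed with the day. It was larger on day 9 than on day 6 by 2.10 (standard error 0.63, adjusted p = 0.0189, limma) and smaller on day 16 than on day 6 by 2.26 on the log2 scale, a change of -2.26 (standard error 0.63, adjusted p = 0.00388). The first of these rests on CD43- values of 2 to 8 on day 9, and with a pseudocount of 10 it was 1.07 (adjusted p = 0.0828). It was also not called without replicate 3 of day 6 CD43- (1.86), replicate 3 of day 9 CD43- (1.63) or replicate 1 of day 9 CD43+ cells (1.96), with adjusted p from 0.0502 to 0.0671. Leaving out all samples of replicate 1, 2 or 3, the first change was 2.48, 2.48 and 1.34, with adjusted p of 0.07, 0.0695 and 0.132. The second was not called without replicate 1 of all populations (-1.99, adjusted p = 0.0749, limma) or replicate 2 (-1.93, adjusted p = 0.0702), nor, by its fold, without the single sample replicate 1 of day 6 CD43- (-1.96) or replicate 2 of day 16 CD43- cells (-1.75). Among all genes, 7.39% were called for the change from day 6 to day 9, where 1 of the 10 was called. The background was 9% from day 9 to day 12, with 0 of the 10 called and 2 at an adjusted p below 0.05 (limma), 5.03% from day 12 to day 16, with 1 called (KLF1, against samples at 0), and 19.2% from day 6 to day 16, with 1 called.

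The 250 bases before the start of KLF1 are shown because the gene and GATA1, the erythroid factor that binds GATA motifs, were high in the same CD43+ populations. They lie at chr19:12887202-12887451 on the minus strand (RefSeq, GRCh38.p14) and hold 1 match to GATAA on either strand, in capitals as TTATC, whose first base is 66 bases before the start. GATAA is common, since 20.4% of 35116 promoters of this length hold it. Other forms of the GATA motif were not searched, such as GATAG, which reads ctatc near the end of the sequence. The motif CACCC, which KLF proteins bind, was not found in this window and is in 54.7% of the promoters.
KLF1 promoter: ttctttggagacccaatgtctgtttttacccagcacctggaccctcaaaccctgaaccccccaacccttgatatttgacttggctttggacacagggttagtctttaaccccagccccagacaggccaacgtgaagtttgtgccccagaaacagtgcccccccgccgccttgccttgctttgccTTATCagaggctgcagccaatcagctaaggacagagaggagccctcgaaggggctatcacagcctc

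Beside KLF1, GATA1 stood at 2616 to 2865 in day 6 CD43+ cells and at 3487 to 3858 on day 9, against 6 to 10 in CD43- cells of both days. The embryonic globin gene HBE1 stood at 90700, the highest value a sample can hold, in all 6 CD43+ samples of days 6 and 9, so its level there is only a lower limit in rank. On days 12 and 16 HBE1 stood at 2618 to 9248 in CD43+ cells. The fetal globin gene HBG2 stood at 15842 to 25836 on day 6, 48030 to 90700 on day 9, 2700 to 9714 on day 12 and 11498 to 37166 on day 16, while the adult gene HBB did not exceed 110 in any sample. HBG1 and HBG2 are nearly identical, so their split is uncertain.

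**Figure D3:**
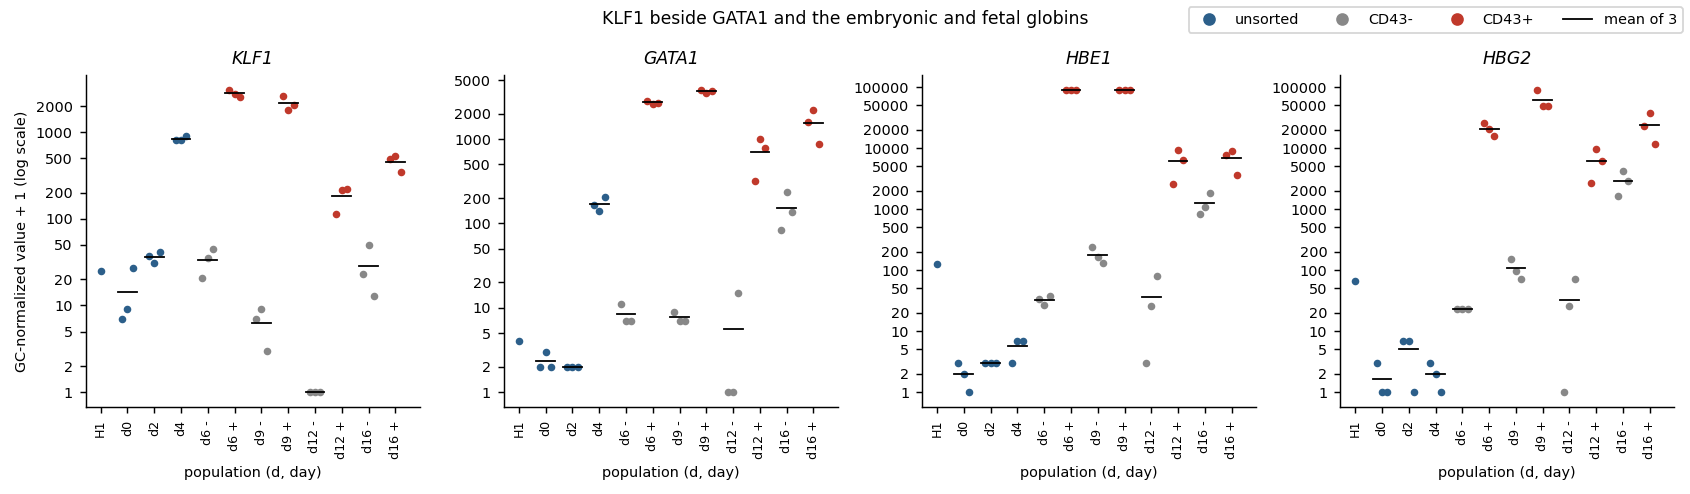
GC-normalized values plus 1 (y axis, log scale) of KLF1, GATA1, HBE1 and HBG2 are shown in each of the 34 samples by population (x axis), with unsorted cells in blue, CD43- in grey, CD43+ in red and means of 3 as lines. All 4 genes are highest in CD43+ cells of day 6 or 9, where HBE1 stands at 90700 in 6 samples, and are lower on day 12.

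A list of 22 genes known to be activated by KLF1 was described next to it, of which 5 are also among the 7 erythroid markers. In CD43+ against CD43- cells, 13 of 22 were called higher and 0 lower on day 6, 16 and 1 on day 9, 13 and 1 on day 12 and 10 and 1 on day 16, against 4.68%, 8.65%, 11.8% and 12.2% of all genes called higher. The median log2 difference of the list was 3.44, 4.67, 2.89 and 1.49 on these days, with medians over all genes of 0.139, 0.244, 0.215 and 0.138. RHAG, the Rh-associated glycoprotein, had the largest difference on day 16 (4.47, standard error 0.64, adjusted p = 6.47e-07, limma). BCAM, the Lutheran adhesion protein, was the gene called lower on days 9, 12 and 16 (-2.52, -2.92 and -3.51). In CD43+ cells between days 6 and 16, 1 of 22 was higher (DMTN, which encodes the cytoskeletal protein dematin, 3.43) and 9 were lower. All genes had 10.5% higher and 10.7% lower in that comparison. In CD43- cells over the same days, 6 of 22 were higher and 0 lower, led by the anion exchanger gene SLC4A1, which is listed at 0 on day 6.

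Among the repressors, SOX6 (ENSG00000110693, chromosome 11 from 15966449 to 16739591, minus strand) was a gene of the CD43- cells. Its values were 3036, 2918 and 4432 in CD43- cells and 90, 85 and 64 in CD43+ cells on day 6, and 3860, 3281 and 3543 against 36, 40 and 35 on day 16. On days 9 and 12 the CD43- samples ranged from 2588 to 6589 and from 2554 to 6071, with replicate 2 the highest on both days, and the CD43+ samples from 32 to 54 and from 62 to 82. On every day all CD43- samples stood far above all CD43+ samples. The log2 difference of CD43+ from CD43- cells was -5.41, -6.42, -5.70 and -6.55 on days 6, 9, 12 and 16 (standard error 0.33, highest adjusted p = 5.95e-13, limma). The summed level of 6 mesenchymal markers was also higher in CD43- cells on these days. It was 186047 to 292440 in the CD43- samples and 4076 to 154858 in the CD43+ samples. In day 4 cells it was 130273 to 189340. In day 6 CD43+ cells it was 58664, 73408 and 154858, and only replicate 3 reached the day 4 range. The part of these markers in the difference was not tested.

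SOX6 was near its lowest before day 4, with 10 in undifferentiated cells, 6, 8 and 10 on day 0 and 8, 10 and 4 on day 2. On day 4 it stood at 408, 315 and 602, a rise of 5.75 (standard error 0.33, adjusted p = 1.63e-13, limma). Against these unsorted cells it was higher by 2.99 in day 6 CD43- cells (adjusted p = 6.05e-08, limma). In day 6 CD43+ cells the difference was -2.42 (adjusted p = 7.89e-07). Since day 4 was not sorted, both differences mix the day with the sort. Day 16 CD43- cells stood 402-fold above EBs at day 0 (adjusted p = 4.45e-18). Day 16 CD43+ cells were still above them, by 2.10 (standard error 0.33, adjusted p = 2.08e-06), close to the 4-fold threshold. It was 1.93 without replicate 1 of day 0 and 1.39 with a pseudocount of 10, and then not called. The order of the 4 CD43- populations by mean (3462 to 4080) was within the spread of their samples. C11orf58, a protein-coding gene on the opposite strand, overlaps the SOX6 locus, as MALSU1 does that of IGF2BP3, and since the use of strand in counting is not given in the sources used here, reads of overlapping genes may not be told apart. SOX5, the closest relative of SOX6, was also lower in CD43+ cells, with a difference of -3.39 on day 6 and -7.33 on day 16 (adjusted p = 6.90e-07 and 1.11e-13, limma). Of the 15 relatives of the 10 genes that were tested, 0 were called higher and 2 lower on day 6, 1 and 2 on day 9, 0 and 4 on day 12 and 3 and 4 on day 16. Of all genes, 4.68%, 8.65%, 11.8% and 12.2% were called higher on these days and 7.85%, 12.8%, 14.4% and 13.6% lower. On day 9, 2 of 15 lower was near the background. The counts lower on days 6, 12 and 16 were above these shares, which was not tested for so small a list. SOX5 had the largest difference each time, and HMGA1 on day 9 (2.29) and KLF4 on day 16 (3.06) led upwards.

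BCL11A (ENSG00000119866, chromosome 2 from 60451167 to 60553567, minus strand) was low on days 4 and 6 and high before and after. Its values were 364 in undifferentiated cells, 238, 256 and 283 on day 0, 288, 222 and 296 on day 2 and 50, 27 and 40 on day 4. The last of these steps was -2.78 (standard error 0.30, adjusted p = 3.91e-08, limma). On day 6 it stood at 28, 20 and 14 in CD43+ cells and 68, 49 and 71 in CD43- cells.

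BCL11A then rose in both populations. On day 9 the values were 188, 107 and 214 in CD43+ and 268, 256 and 396 in CD43- cells, rises of 2.97 (standard error 0.30, adjusted p = 2.41e-08, limma) and 2.26 (standard error 0.30, adjusted p = 2.68e-05). The second was not called when only the populations compared were fitted (adjusted p = 0.0765). On day 16 the values were 258, 210 and 258 in CD43+ and 238, 218 and 266 in CD43- cells, and the populations overlapped. The difference of day 16 from day 6 was 3.53 in CD43+ cells (standard error 0.30, adjusted p = 8.60e-11) and 1.94 in CD43- cells (standard error 0.30, adjusted p = 5.86e-06), the latter under 4-fold, and 2.01 to 2.04 without replicate 1 or 3 of day 6 or replicate 2 of day 16. Between CD43+ and CD43- cells, differences of -1.59 (day 6), -0.88 (day 9) and -1.53 (day 12) passed the adjusted p (highest 0.013, limma) and not the fold. With replicate 1 alone for day 12 CD43- cells, the sample in which macrophage markers were low, the day 12 difference was -2.25 (adjusted p = 2.42e-05) and its change to day 16 was 2.25 (adjusted p = 0.00195), both then called. The change of this difference from day 6 to day 16, 1.59 (standard error 0.43, adjusted p = 0.00321), was not called either.

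In CD43+ cells BCL11A was lowest on day 6, where KLF1 was highest, and on day 9 KLF1 still overlapped its day 6 values when BCL11A had risen. Over the 34 samples Pearson's r of their log2 values was -0.66 (Spearman's rho -0.72), a description across samples that share their populations. In CD43+ cells HBE1 was at its highest value on days 6 and 9, while BCL11A ranged from 14 to 28 in the first and from 107 to 214 in the second of these.

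ZBTB7A (ENSG00000178951, chromosome 19 from 4044364 to 4066945, minus strand) was present in every sample and varied little before day 9, from 518 to 764 over all samples up to day 6. In CD43+ cells it stood at 892, 996 and 896 on day 9, 2460, 2426 and 2612 on day 12 and 1324, 1173 and 1092 on day 16. The day 12 samples stood above every other sample of the series. In CD43+ cells the summed level of 6 neutrophil markers was 109 to 143 on day 6, 21953 to 30213 on day 9, 139017 to 155121 on day 12 and 132308 to 164701 on day 16, and that of 6 macrophage markers was 354 to 737 on day 6 and 21196 to 67770 on day 12. Their part in the levels of ZBTB7A and BCL11A was not tested. Against CD43- cells the difference was 0.34, 0.56, 1.22 and 0.78 on days 6, 9, 12 and 16 (standard error 0.10, highest adjusted p = 0.00726, limma), under 4-fold throughout, and CD43+ samples stood above all CD43- samples on each day. The step from day 9 to day 12 in CD43+ cells was 1.43 (adjusted p = 1.11e-11) and that from day 12 to day 16 was -1.07 (adjusted p = 7.75e-09). The CD43- cells stood at 1057, 894 and 1293 on day 12 and at 660 to 714 on day 16.

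Other genes of globin control were read beside the repressors. Of 22 other regulators and corepressors, 5 were called higher on day 6 (GATA1, MYB, NFE2, NFIX and TAL1), and 5, 4 and 4 on days 9, 12 and 16. Against the 4.68%, 8.65%, 11.8% and 12.2% of all genes called higher on these days, the counts of days 12 and 16 were near the background. NFIA, a nuclear factor, was called lower on day 12 (-2.84). MYB, a factor of blood progenitors, led on day 16 (5.72, standard error 0.53, adjusted p = 3.13e-10, limma). In CD43+ cells from day 6 to day 16, KDM1A, a histone demethylase and corepressor, was lower, by a log2 difference of -2.30 (adjusted p = 1.37e-12). Of 13 subunits of NuRD, the nucleosome remodelling complex that BCL11A and ZBTB7A recruit, 0 were called in any of the 4 CD43 comparisons, where 12.5% to 26.2% of all genes were (limma). On days 6, 9, 12 and 16, 9, 10, 7 and 9 of the 13 had an adjusted p below 0.05 and 9, 10, 9 and 10 an unadjusted p below 0.05. The shares of all genes with an adjusted p below 0.05 were 50.3%, 65.7%, 68% and 67.4%. MBD2, its methyl-DNA binding subunit, rose in CD43+ cells from day 6 to day 16 (2.09, adjusted p = 2.21e-10). Of the 10 haemoglobin genes, 10 were called higher in CD43+ cells on days 6 and 9, and 9 and then 6 on days 12 and 16.

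LIN28A (ENSG00000131914, chromosome 1 from 26410778 to 26429722, plus strand) was highest in undifferentiated cells and lowest on days 12 and 16 in both sorted populations. Its value was 48050 in undifferentiated cells, 20418, 22836 and 22836 on day 0, 18767, 18767 and 20418 on day 2 and 15863, 14682 and 14012 on day 4. In CD43+ cells it stood at 6820, 7332 and 9896 on day 6, 1959, 2210 and 2034 on day 9, 120, 311 and 226 on day 12 and 186, 398 and 75 on day 16. In CD43- cells the values were 4508, 7489 and 9242, then 2328, 2049 and 2338, then 1274, 454 and 446, and 474, 336 and 428. The summed level of 6 pluripotent cell markers was 53466 in undifferentiated cells and 67247 to 75197 on day 0. It was 6831 to 8413 on day 4. On day 16 it was 450 to 548 in CD43+ and 1174 to 1607 in CD43- cells. This sum and LIN28A both fell between days 0 and 4, and LIN28B rose. The part of these markers in the levels of LIN28A and LIN28B was not tested. From day 6 on, the LIN28A samples of each day stood below those of the day before in each population up to day 12, and days 12 and 16 overlapped.

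Against day 0, LIN28A was lower, by a log2 difference of -6.95 in day 16 CD43+ cells (standard error 0.40, adjusted p = 1.18e-14, limma) and by -5.75 in day 16 CD43- cells (standard error 0.40, adjusted p = 8.53e-13). From day 6 to day 16 the change was -5.47 (adjusted p = 3.49e-12) and -4.05 (adjusted p = 4.23e-09). Of the 3 steps between sampled days in CD43+ cells, that from day 9 to day 12 was the largest, at -3.34 (standard error 0.40, adjusted p = 8.89e-08). The step from day 6 to day 9 was -1.94, and -2.04 without replicate 1 of day 6. In CD43- cells that from day 9 to day 12 was -1.81, -2.31 without replicate 1 of day 12 and -0.81 with that replicate alone (adjusted p = 0.288). On day 12 LIN28A was lower in CD43+ than in CD43- cells, with a difference of -1.64 (adjusted p = 0.000727), and on day 16 of -1.20 (adjusted p = 0.00998), under 4-fold in both, and on day 12 the highest CD43- sample (1274) was replicate 1. Without the other 2 day 12 CD43- samples, which held macrophage markers at 4260 and 5709 against 256, the day 12 difference was -2.64, and without all samples of replicate 1 it was -0.76 (adjusted p = 0.167, limma). The day 16 difference was -0.55 without replicate 3 (adjusted p = 0.315) and -0.58 without the day 16 CD43+ sample of that number (adjusted p = 0.166).

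LIN28B (ENSG00000187772, chromosome 6 from 104936616 to 105083332, plus strand) was highest on days 2 and 4 and lowest on day 16. It stood at 4613 in undifferentiated cells, 5136, 5912 and 5912 on day 0, 8510, 8278 and 8510 on day 2 and 7911, 7492 and 8278 on day 4. The difference of day 2 from day 0 was 0.58 (adjusted p = 0.00287, limma), well under 4-fold, and no day 2 sample overlapped day 0. In CD43+ cells the values were 4155, 4294 and 4613 on day 6, 3209, 3458 and 3281 on day 9, 1146, 1460 and 1414 on day 12 and 956, 1068 and 1034 on day 16. In CD43- cells they were 2998, 3860 and 5316, then 2266, 3378 and 2340, then 1694, 1357 and 1357, and 1180, 1315 and 1324. CD43+ and CD43- samples overlapped on days 6, 9 and 12 and did not on day 16. By the fit, only the day 9 difference had an adjusted p below 0.05 (limma). CD43+ cells were higher on that day, by 0.13 to 0.53 on the log2 scale under the alternatives, well under 4-fold.

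LIN28B changed by -2.09 from day 6 to day 16 in CD43+ cells (standard error 0.15, adjusted p = 1.75e-12, limma), which with median-of-ratios scaling was -1.92 and not called, and by -1.63 in CD43- cells (adjusted p = 9.86e-10). Against day 0 it was lower, by a log2 difference of -2.47 in day 16 CD43+ cells (adjusted p = 2.62e-14) and -2.15 in day 16 CD43- cells (adjusted p = 6.92e-13). LIN28A and LIN28B moved together, with Pearson's r of 0.94 over the 34 samples (Spearman's rho 0.92), a description of samples that share their populations.

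IGF2BP1 (ENSG00000159217, chromosome 17 from 48997412 to 49055650, plus strand) encodes an RNA-binding protein that stabilises fetal transcripts. It stood at 9242 in undifferentiated cells, 5909, 6250 and 7633 on day 0, 7633, 7910 and 7489 on day 2 and 12010, 12010 and 11198 on day 4, its highest population. In CD43+ cells it stood at 9724, 9242 and 10082 on day 6, 7332, 7034 and 7034 on day 9, 4116, 4718 and 4848 on day 12 and 3423, 3755 and 3686 on day 16. In CD43- cells the values were 7489, 8798 and 7776, then 7489, 5251 and 7776, then 6366, 4544 and 5558, and 3986, 4508 and 4154. Neither population overlapped between days 6 and 16, with changes of -1.42 (standard error 0.12, adjusted p = 1.07e-10, limma) in CD43+ cells and -0.93 (adjusted p = 5.34e-07) in CD43- cells, under 4-fold.

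IGF2BP3 (ENSG00000136231, chromosome 7 from 23310209 to 23470467, minus strand), its relative, was highest before day 2 and changed less afterwards. It stood at 3978 in undifferentiated cells, 4600, 4708 and 4538 on day 0 and 2296, 2243 and 2308 on day 2. The step was -1.02 (standard error 0.10, adjusted p = 7.94e-09, limma). From day 6 on it ranged from 1052 to 1658 over all 24 sorted samples, and CD43+ and CD43- cells overlapped on every day. Against day 0, the change was -1.73 in day 16 CD43+ cells (adjusted p = 1.60e-14) and -1.68 in day 16 CD43- cells (adjusted p = 4.59e-14), under 4-fold.

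HMGA2 (ENSG00000149948, chromosome 12 from 65824131 to 65966295, plus strand) encodes a chromatin protein of growing and fetal tissue. It stood at 4615 in undifferentiated cells, 4041, 4965 and 4118 on day 0, 6072, 7165 and 6704 on day 2 and 10844, 11204 and 8281 on day 4. The samples of days 0, 2 and 4 did not overlap, but neither step passed the test (0.61 and 0.60, lowest adjusted p = 0.299, limma). The fit shares 1 spread over all populations. For HMGA2 the SD of log2 values was 1.32 in day 12 CD43- cells and 0.164 at the median of the populations. In CD43+ cells it stood at 1684, 1786 and 2028 on day 6, 1320, 1600 and 1714 on day 9, 940, 906 and 775 on day 12 and 610, 648 and 590 on day 16. The difference of day 6 CD43+ cells from unsorted day 4 cells was -2.45 (standard error 0.43, adjusted p = 3.46e-05, limma). The 12 CD43+ samples were the 12 lowest of the series. Day 16 CD43+ cells were below day 0, with a difference of -2.82 (standard error 0.43, adjusted p = 1.75e-06).

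In CD43- cells HMGA2 stood at 14688, 22847 and 9902 on day 6, 37190, 8977 and 37190 on day 9, 25876, 4380 and 7165 on day 12 and 6012, 5198 and 6372 on day 16. These samples spread widely, and replicate 2 was the lowest on days 9 and 12. The log2 difference of CD43+ from CD43- cells was -3.03, -3.91, -3.42 and -3.24 on days 6, 9, 12 and 16 (standard error 0.43, highest adjusted p = 1.96e-06, limma). Within CD43- cells the change from day 9 to day 12 was -1.31 (adjusted p = 0.0194), with only replicate 1 of day 12 it was 0.16 (adjusted p = 0.86), and without that replicate it was -2.05 (adjusted p = 0.000108). The mesenchymal markers named above, like HMGA2, stood higher in CD43- than in CD43+ cells on each day. Their sum was 5781 to 10969 on days 0 and 2 and 58664 to 154858 in day 6 CD43+ cells. In CD43- cells it was 214794 to 266512 on day 9 and 284568 to 292440 on day 16. The highest value a gene can hold is 90700, which limits such a sum from above. The part of these markers was not tested. AC090673.1, an antisense gene in the table, overlaps the locus.

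ARID3A (ENSG00000116017, chromosome 19 from 925781 to 975934, plus strand) encodes a DNA-binding protein known in B cell and fetal haematopoietic progenitors. It stood at 2574 in undifferentiated cells, 2054, 2357 and 2496 on day 0, 4954, 4894 and 4954 on day 2 and 7026, 6135 and 6690 on day 4. From day 2 on, all samples stood between 4072 and 7026, above those of day 0 and of undifferentiated cells. The step from day 0 to day 2 was 1.10 (standard error 0.10, adjusted p = 1.97e-09, limma). CD43+ samples (5632 to 6000) stood above CD43- samples (4072 to 5245) on day 9, by 0.36 (adjusted p = 0.00269), and on day 12 by 0.31 (adjusted p = 0.00789), small differences under 4-fold. Unlike the other let-7 targets among the 10, it was higher in day 16 CD43+ cells than on day 0 (1.10, adjusted p = 1.74e-10).

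**Figure D4:**
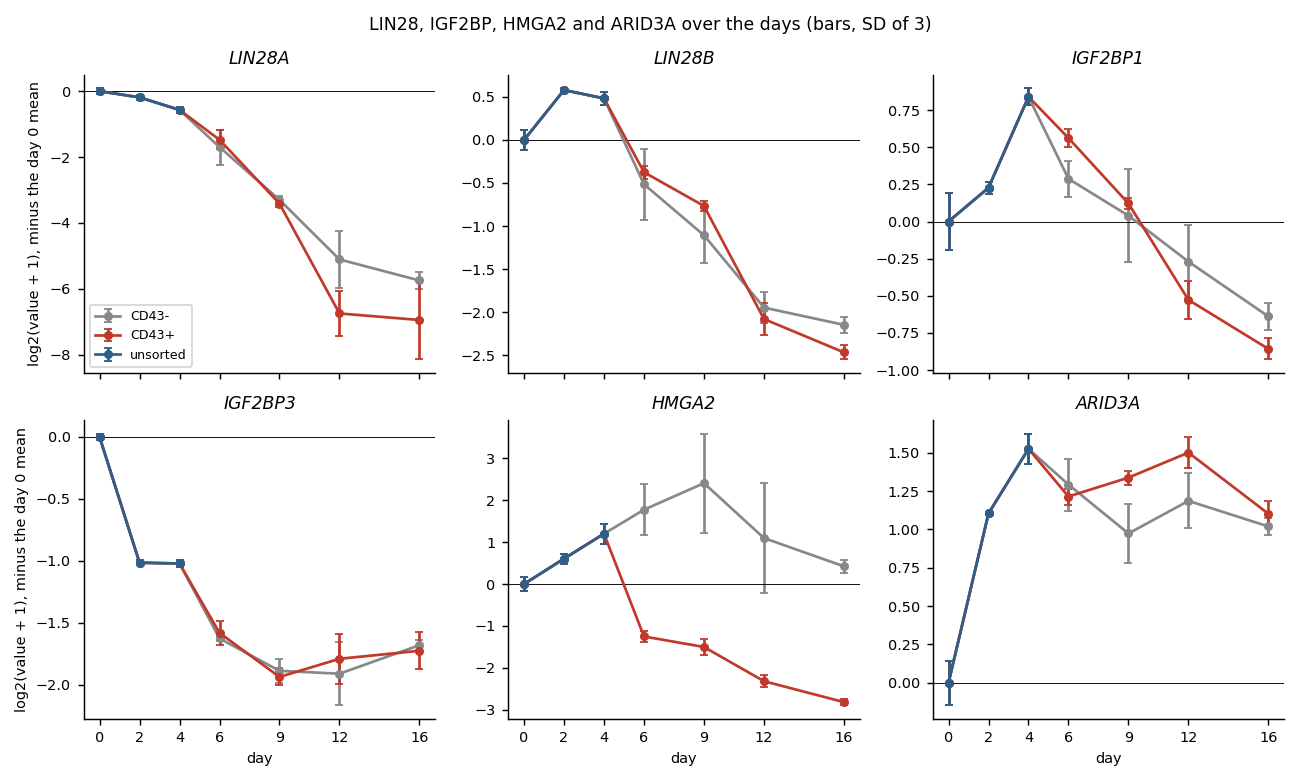
The log2(value + 1) minus its mean on day 0 (y axis) is plotted against the day of differentiation (x axis) for 6 genes, with blue for unsorted cells, grey for CD43-, red for CD43+ and bars for the SD of 3 samples. LIN28A and LIN28B end well below day 0 in both sorted populations, IGF2BP1 and IGF2BP3 by less, HMGA2 below day 0 in CD43+ cells alone, and ARID3A above it.

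Other genes with known let-7 sites were also read, of which 23 of 24 were tested, 6 of them shared with other lists. In CD43+ cells from day 6 to day 16, 0 of 23 were called higher and 7 lower, and in CD43- cells 0 higher and 4 lower, against 10.5% higher and 10.7% lower and 6.91% higher and 6.26% lower over all genes. The median change of the list was -0.94 and -0.83, with medians over all genes of -0.146 and -0.048. The 2 comparisons share no samples. E2F5, a cell cycle factor, led in CD43+ cells (-3.93, standard error 0.24, adjusted p = 1.23e-13, limma) and NR6A1, the germ cell nuclear factor, in CD43- cells (-3.76, standard error 0.17, adjusted p = 1.31e-14). Between CD43+ and CD43- cells the list had 1 higher and 0 lower on day 6, 2 and 1 on day 9, 0 and 3 on day 12 and 1 and 2 on day 16, at or below the 4.68% to 12.2% of all genes called higher and the 7.85% to 14.4% called lower on these days. It was led upwards by MYC (2.42 on day 6), MYCN (2.32 on day 9) and CDC25A (2.39 on day 16), growth and cell cycle genes, and downwards by CCND1 (-3.08 on day 9 and -2.96 on day 12) and CCND2 (-2.84 on day 16), which encode cyclins of the G1 phase.

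Of 12 genes of let-7 processing and turnover, 1 was called between CD43+ and CD43- cells on any day, against 12.5% to 26.2% of all genes on a single day. It was TRIM25, which encodes an E3 ligase and cofactor of precursor uridylation, on day 12 (2.01, standard error 0.15, adjusted p = 2.40e-12, limma). In CD43+ cells TRIM25 rose from day 6 to day 16 by 3.28 (adjusted p = 2.23e-16). TRIM71, which encodes an RNA-binding ligase of stem cells and is itself a let-7 target, changed by -2.02 in CD43- cells over the same days (adjusted p = 6.52e-09).

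The genes most like each of the 10 in pattern were named by Pearson's r of log2 values over the 34 samples, which share their populations. For KLF1 the closest was GYPE (0.94), for SOX6 the collagen gene COL6A3 (0.99), for HMGA2 FRMD6 (0.97) and for BCL11A IRF2BPL (0.82). For LIN28A it was TCF3 (0.96), for LIN28B NUTF2 (0.96), for IGF2BP1 SMARCA4 (0.93), for IGF2BP3 MAD2L2 (0.96), for ZBTB7A APOC2 (0.94) and for ARID3A SOAT1 (0.89). By Spearman's rho SOAT1 was only the 979th nearest gene of ARID3A (0.44), APOC2 the 175th of ZBTB7A (0.80) and MAD2L2 the 76th of IGF2BP3 (0.79). HDAC2, a NuRD subunit, was among the 3 nearest genes of both LIN28A and LIN28B.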

How the data were processed

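RNA of 34 samples of H1 cells was sequenced, by the study's methods at RiboBio and Annoroad Gene Technology. The labels do not say which sample went to which provider, so an effect of the provider could not be tested. Per the study's methods, the authors used bowtie2 and RSEM with the Ensembl gene models, while the submitters' processing notes also list STAR 2.7, bcl2fastq and hg38. What the authors deposited are tag counts normalized for GC content with EDASeq, treated here as a normalized score and not as a count. They are whole numbers, every sample sums to 17856940, and the 34 samples hold the same values in another order. Depth is unknown and no counting error was computed. The deposited table gives a GC percent per gene, which was not tested. No column was left unmapped.

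The 19788 genes that reached 10 in 3 or more samples were tested (467 were left out). Values were taken as log2(value + 1), and limma 3.58.1 under R 4.3.3 fitted the 33 replicated samples together, with a mean per population and moderated variances that follow a trend. The undifferentiated sample had no replicate and stayed out of the fit. The fit was tested on simulated data with known changes. These data had normal noise with the spread of day 6 CD43+ cells in every population. The unequal spread of the real populations was therefore not covered. Compared were both sorted populations on each of 4 days, successive days, day 16 against days 0 and 6, and the change of the CD43 difference. Let-7 matches were searched with python 3.11.15 in GENCODE v29 and RefSeq tables, in the transcript with the best principal tag and then the greatest length. RefSeq promoter entries were found for 6 of the 10 genes. Genes outside the 10 were named by rule: the 3 tested genes nearest in pattern to each, and, in each list and CD43 or day 16 against day 6 comparison, the called gene with the largest change in each direction. Some of the genes that this rule names are counted and not named, and a result of 1 of them is not reported here. HBE1, HBG2, HBB, GATA1, SPN and PTPRC were added beside them, as were other genes of a count of 5 or fewer, chosen after their values were seen. The genes and lists were chosen with earlier results of these data known.

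To see if a shared replicate number marks a pair, deviations from the population means were correlated between the CD43+ and CD43- samples of the same number. The correlation was 0.198, 0.109 and 0.199 on day 6, and under 0.1 for at least 1 pair on the other days, so pairs were accepted for day 6 alone. Alternatives were pseudocounts of 0.1 and 10, other filters, scalings and variances, a replicate block, fits restricted to the compared populations, a fold change above 2, and leaving out replicates or single samples. A block within day 6 and fits without doubted CD43- samples were chosen after seeing the data.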

Additional observations from a re-analysis of the deposited data

Results flagged for a closer look

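The difference in KLF1 between CD43+ and CD43- cells passed a test of the change of the difference itself between days, in calls that did not hold under all alternatives. From day 6 to day 9 it grew by 2.10 on the log2 scale (adjusted p = 0.0189, limma). From day 6 to day 16 it changed by -2.26 (adjusted p = 0.00388). The first was lost with a pseudocount of 10 (1.07, adjusted p = 0.0828, limma) and without replicate 1, 2 or 3 (lowest adjusted p = 0.0695), and the second without replicate 1 or 2 (adjusted p = 0.0749 and 0.0702). CD43+ samples stood above CD43- samples on all 4 days. The CD43- values of KLF1 were at most 49 on these days.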

How the results depend on the processing

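The 12 calls between CD43+ and CD43- cells, 7 over days 0 to 6, 7 over days in CD43+ cells and 8 of day 16 against day 0 stayed within 1.5 times under every alternative except a fold change above 2, with 17, 12, 15 and 13 calls, of which the first was within 1.5 times. Within CD43- cells the 5 calls became 2 with a pseudocount of 10, 3 with only the populations compared and 11 above a 2-fold change, and 4 to 7 without 1 replicate. The 3 calls for the change of the CD43 difference became 8 above a 2-fold change, 5 with the first day 12 CD43- sample alone, and 1 to 2 without 1 replicate. With a replicate block the calls were 12, 7, 7, 5, 8 and 3, as without it, and it changed no call, nor did the block within day 6. Of 38 called fold changes, 32 were called under all alternatives run. HMGA2 from day 9 to day 12 in CD43- cells changed sign, to 0.16, with the first day 12 sample alone. Of the 30 nearest genes in pattern, 9 stayed among the 3 nearest by Spearman's rho and 17 over population means. Lowering the threshold adds calls by construction, and for the other changes the cause was not tested. With rank-like values no counting error can be added to the replicate spread, and signal near 0 cannot be told from none.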
